A study of Rattus norvegicus with 8 samples.

Results

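The miR-200 family comprised 9 of the 758 rat miRNAs measured on the array. Members were all features whose name begins with rno-miR-200a, rno-miR-200b, rno-miR-200c, rno-miR-141 or rno-miR-429. They were rno-miR-200b-3p, rno-miR-200b-5p, rno-miR-200a-3p, rno-miR-200a-5p and rno-miR-429 of the first genomic cluster, and rno-miR-200c-3p, rno-miR-200c-5p, rno-miR-141-3p and rno-miR-141-5p of the other, written without the species prefix from here on. The working list of the family had named 7 of these, and the same name rule also found miR-200c-5p and miR-141-5p. The comparison addressed whether these epithelial miRNAs differed between laser-treated and sham-operated prostatic urethra, and whether the clusters and the seed groups differed alike.

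A miRNA is a short RNA that pairs with messenger RNAs mainly through its seed, bases 2 to 8, and lowers their translation and stability. The miR-200 family is known for its high expression in epithelial cells, where it represses Zeb1 and Zeb2, transcription factors that repress E-cadherin and favour a mesenchymal state. Zeb1 and Zeb2 in turn repress transcription of the miR-200 clusters, so that the family and its targets form a double-negative loop. In each hairpin, the 3p arm (with miR-429) is the guide strand usually retained and the 5p arm is the passenger strand.

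The tissue was prostatic urethra of male Sprague Dawley (SD) rats, aged 10 to 12 months, taken 5 days after surgery. In the TULP group of 4 rats, the bladder was opened and a thulium laser vaporized the epithelium of the prostatic urethra, to imitate transurethral laser prostatectomy (TULP). In the sham group of 4 rats, the abdomen was opened and no laser was applied. Each rat gave 1 array with Cy3 as the only dye. For the TULP samples, the title, source name and treatment all say trauma, whereas the description says sham surgery, and groups were taken from the titles. The tissue was whole wound tissue, in which fewer epithelial cells and less miRNA per cell cannot be told apart.

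The sequences below show how far the members differ from each other and which bases the array could read. Mature sequences are RefSeq entries (build GRCr8), with the seed in capitals, and the probes are those of the array, with the bases that pair with the seed in capitals. The guide arms miR-200c-3p and miR-141-3p are shown because each belongs to a different seed group. By the usual classification of the family, taken here as background and not read from sequences, miR-200b-3p and miR-429 are grouped with miR-200c-3p, and miR-200a-3p with miR-141-3p.
miR-200c-3p: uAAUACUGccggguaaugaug
miR-141-3p: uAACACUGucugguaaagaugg
Over the 21 bases aligned from the 5′ end, 17 were identical and 4 differed (U4C, C9U, G11U and U17A, with the base of miR-200c-3p before the position). U4C was the 1 substitution inside the seed.

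The passenger arms are shown because they did not share the seeds of the guides.
miR-200b-5p: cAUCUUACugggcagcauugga
miR-200a-5p: cAUCUUACcggacagugcugg
miR-200c-5p: cGUCUUACccagcaguguuug
miR-141-5p: uCCAUCUUccagugcaguguug
The seed of miR-200b-5p was that of miR-200a-5p, and the other passenger arms each had their own.

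The array read the 9 members with 20 probes. For the 6 members printed above, 14 probes were matched to the mature sequence, each pairing with its 3′ end, and 9 of these reached into the seed while 5 ended before it. The probes of the members on which the results turn were as follows.
miR-200c-3p, 14 bases: catcattacccggC
miR-200c-3p, 15 bases: catcattacccggCA
miR-141-3p, 16 bases: ccatctttaccagaCA
miR-141-3p, 17 bases: ccatctttaccagaCAG
miR-200b-5p, 15 bases: tccaatgctgcccaG
The probes of miR-200c-3p paired with 1 or 2 bases of the seed, and those of miR-141-3p with 2 or 3. The substitution U4C lay outside the stretch read by these probes, whose pairing began at base 8 or 7 of miR-200c-3p and at base 7 or 6 of miR-141-3p.

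In GRCr8, both clusters were on the minus strand. The hairpin of miR-200b was at chr5:171931495-171931589, that of miR-200a at chr5:171930717-171930805 and that of miR-429 at chr5:171929682-171929766. This cluster spanned 1908 bases, inside the annotated bounds of the protein-coding gene Ttll10 and of the long non-coding RNA LOC106182250. The hairpin of miR-200c was at chr4:159209965-159210033 and that of miR-141 at chr4:159209525-159209618. They spanned 509 bases between Phb2 and Ptpn6 and overlapped no other annotated gene.

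All 8 arrays lay on 1 slide, and the arrays detected 136 to 156 of the rat miRNAs each, with 0 saturated spots. TULP replicates 1 to 3 lay in the first slide row with sham replicate 4, and TULP replicate 4 lay in the other row with sham replicates 1 to 3. TULP replicate 1 detected the fewest miRNAs, 136 against 147 to 151 on the other TULP arrays. For 5 of the 6 family members tested, it was also the highest array of its group. Results are therefore given with and without it. The mean log2 level of 6 tested leukocyte miRNAs was 4.00 on TULP replicate 1, between the groups. It was 4.45 to 4.79 on the other TULP arrays and 2.77 to 3.63 on the sham arrays. Not every marker list placed this array between the groups. The mean of 5 tested striated muscle miRNAs was lowest on TULP replicate 1, at 7.47. That mean was 7.96 to 8.30 on the other TULP arrays and 8.20 to 8.75 on the sham arrays.

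The 5 guide arms were detected on all 8 arrays. The passenger arm miR-200b-5p was detected on 5 arrays, the 4 sham arrays and TULP replicate 1. miR-200a-5p, miR-200c-5p and miR-141-5p were detected on 0 arrays. Their total probe signal did not exceed 3 times its error on any array, so no comparison was made for them. A miRNA was tested when it was detected on at least 4 of the 8 arrays, which left 6 members among 151 miRNAs.

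**Figure D1:**
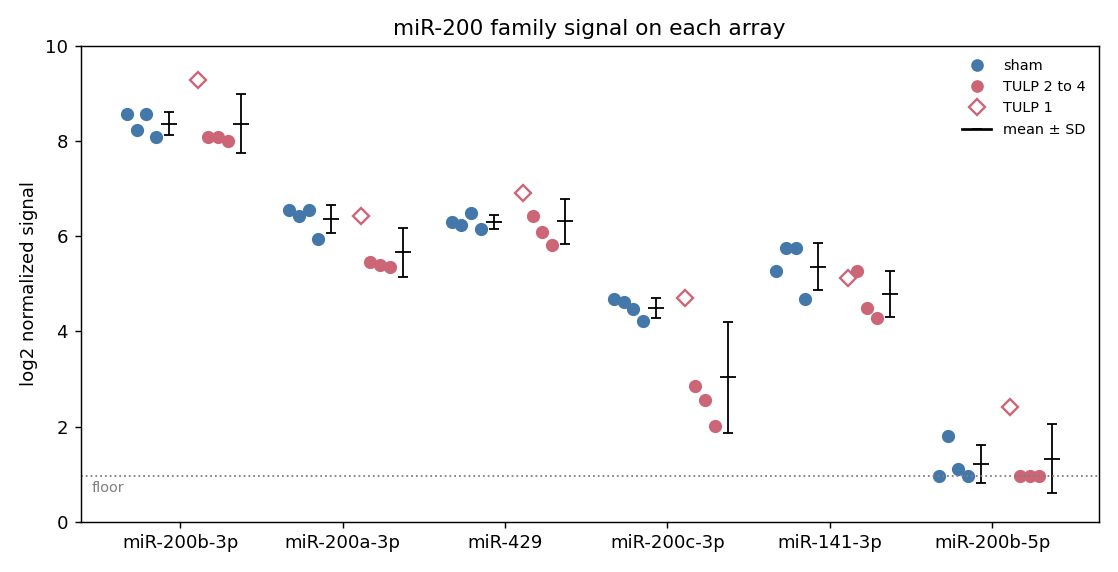
Log2 normalized signal of the 6 tested miR-200 family members (x axis) on each of the 4 sham and 4 TULP arrays, with the group mean and SD as bars and the floor to which lower values were raised (0.96) as a dotted line. TULP replicate 1, drawn as an open diamond, lay at or above the sham arrays for miR-200b-3p, miR-429, miR-200c-3p and miR-200b-5p, and TULP replicates 2 to 4 lay below all sham arrays for miR-200a-3p and miR-200c-3p.

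miR-200c-3p had the largest fitted difference of the family. On the log2 scale of the normalized signal, its level was 4.69, 4.61, 4.47 and 4.22 on sham replicates 1 to 4, against 4.71, 2.86, 2.56 and 2.00 on TULP replicates 1 to 4. TULP replicates 2, 3 and 4 lay below each sham array, and TULP replicate 1 lay just above the highest sham array, so that the groups overlapped. The sham mean was 4.50 ± 0.21 and the TULP mean 3.03 ± 1.17 (SD, n = 4 each). Their difference of -1.46 (SE 0.54) did not pass (limma, adjusted p = 0.0753).

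miR-141-3p, the cluster mate of miR-200c, had levels of 5.26, 5.74, 5.74 and 4.69 across the sham arrays, against 5.13, 5.26, 4.48 and 4.28 across the TULP arrays. Here the groups overlapped through sham replicate 4 as well as TULP replicates 1 and 2. The difference was -0.57 (SE 0.32, limma adjusted p = 0.232).

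miR-200a-3p, which shares its seed group with miR-141-3p and its cluster with miR-200b, had levels of 6.56, 6.42, 6.56 and 5.94 across the sham arrays, against 6.42, 5.46, 5.40 and 5.35 across the TULP arrays. TULP replicates 2, 3 and 4 were nearly equal and lay below each sham array, while TULP replicate 1 lay within the sham range. The sham mean was 6.37 ± 0.30 and the TULP mean 5.66 ± 0.51 (SD, n = 4 each). Their difference of -0.71 (SE 0.27) did not pass (limma, adjusted p = 0.0874).

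miR-200b-3p, transcribed with miR-200a and miR-429, had levels of 8.57, 8.24, 8.57 and 8.08 across the sham arrays, against 9.29, 8.08, 8.08 and 8.01 across the TULP arrays. TULP replicate 1 was the highest of all 8 arrays and the other TULP arrays lay at or just below the lowest sham array. The group means, 8.36 ± 0.24 and 8.36 ± 0.62 (SD, n = 4 each), did not differ beyond the spread (limma, SE 0.31, adjusted p = 1).

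miR-429 had levels of 6.30, 6.24, 6.50 and 6.16 across the sham arrays, against 6.91, 6.42, 6.09 and 5.82 across the TULP arrays. The TULP arrays lay on both sides of the sham range. The difference was 0.01 (SE 0.23, limma adjusted p = 0.992).

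The passenger arm miR-200b-5p was at or near the floor of 0.96 on most arrays. Its level was 0.96, 1.80, 1.11 and 0.96 on the sham arrays, 2.40 on TULP replicate 1 and 0.96, the floor, on TULP replicates 2, 3 and 4, where it was not detected. On sham replicates 1 and 4 it was detected, and its lower normalized value was raised to the floor. The difference was 0.11 (SE 0.38, limma adjusted p = 0.900).

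With all 8 arrays, 0 of the 6 tested members passed an adjusted p of 0.05 in limma, against 46 of all 151 tested miRNAs (30.5%, of which 16.6% lower and 13.9% higher). With a fold above 2 as well, the count was 0 of 6 against 9.27% of all tested miRNAs, 3.97% lower. At an unadjusted p under 0.05 there were 2, miR-200c-3p and miR-200a-3p, against 43% of all tested miRNAs. The groups did not overlap for 0 of the 6 members and for 29.1% of all tested miRNAs. Of the 6 members, 2 had 3 TULP arrays below all sham arrays, a pattern that 26.5% of all tested miRNAs had as well. Whatever the p, 3 of 6 members had a lower TULP mean, as did 53% of all tested miRNAs, and 1 was more than 2-fold lower, miR-200c-3p, against 5.96%. The median difference was -0.57 over the 5 guide arms, -0.29 over the 6 members and -0.02 over all tested miRNAs.

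TULP replicate 1 was set apart partly by its high values for these same members. Leaving it out therefore favours a larger drop and a smaller spread, and the p-values of this fit are descriptions only. Without TULP replicate 1, miR-200c-3p differed by -2.02 (SE 0.23, limma adjusted p = 0.00180), 4.06-fold lower in the TULP group. miR-200a-3p differed by -0.96 (SE 0.17, limma adjusted p = 0.00814), 1.95-fold lower. Both had groups that did not overlap. miR-141-3p (-0.69, SE 0.35, adjusted p = 0.161), miR-200b-3p (-0.31, SE 0.15, adjusted p = 0.133) and miR-429 (-0.19, SE 0.16, adjusted p = 0.435) did not pass in limma. In this fit 2 of 6 members passed, both lower, against a background of 39.7% of all tested miRNAs in either direction and 23.2% lower. With a fold above 2 as well, 1 of 6 passed, miR-200c-3p, against 14.6% in either direction and 6.62% lower. Leaving out any other single array left 0 members past the threshold.

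**Figure D2:**
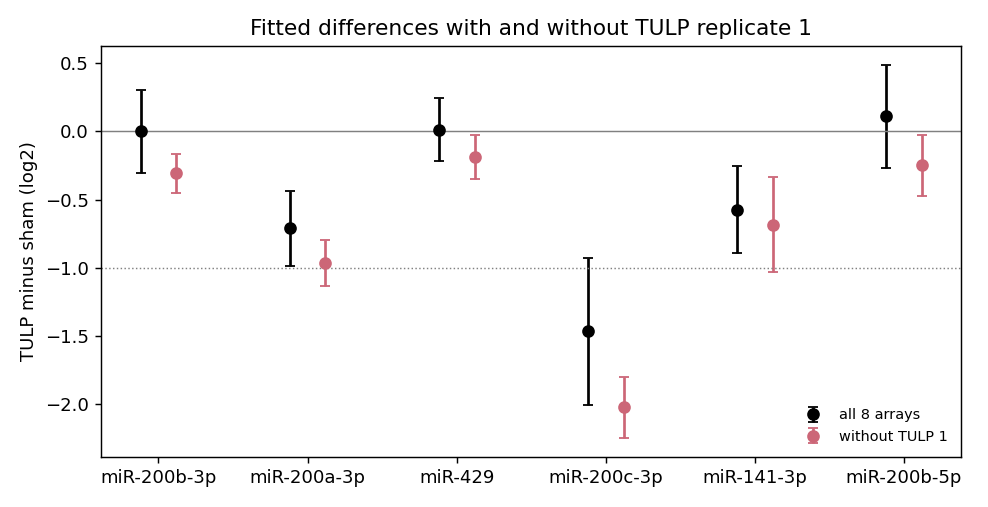
TULP minus sham difference (log2, y axis) of each tested member from limma, with its SE, over all 8 arrays (black) and without TULP replicate 1 (red). The dotted line marks a 2-fold lower level, and miR-200c-3p moves from -1.46 to -2.02 and miR-200a-3p from -0.71 to -0.96 when that array is left out.

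The size of the difference between the clusters depended on the processing. With the signals rebuilt from detected probes, the guide arms of the cluster of miR-200b, miR-200a and miR-429 had a mean TULP minus sham difference of -0.23 and those of the cluster of miR-200c and miR-141 one of -1.02. The second mean was carried mainly by miR-200c-3p (-1.46). miR-141-3p (-0.57) differed less than miR-200a-3p of the first cluster (-0.71). No within-array ratio of miR-141-3p to a member of the first cluster separated the groups. The mean log2 level of the first cluster minus that of the second was 2.17, 1.79, 2.10 and 2.27 across the sham arrays, against 2.62, 2.59, 3.00 and 3.25 across the TULP arrays. These groups did not overlap, TULP replicate 1 included. How often such contrasts of means separate was not computed. Of single tested miRNAs 29.1% did not overlap, and of ratios between miRNAs detected on every array 31.8%. The contrast between the clusters was 0.79 over all arrays and 0.87 without TULP replicate 1, and is given without a test because the members were chosen with results of these data known. It was 0.54 with the brightest probe of each miRNA, and 0.52 without normalization or with scaling to the 75th percentile. The contrast was 0.045 with normexp background correction, under which the clusters hardly differed, and -1.65 with the stored totals described below.

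The seed groups did not separate in this way. The difference was -0.48 for miR-200b-3p, miR-200c-3p and miR-429 together and -0.64 for miR-200a-3p and miR-141-3p together. The mean log2 level of the first seed group minus that of the second was 0.61, 0.28, 0.36 and 0.84 across the sham arrays, against 1.20, 0.43, 0.64 and 0.46 across the TULP arrays, which overlapped. The seed contrast was 0.16, and -0.02 without TULP replicate 1.

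A ratio of signals within an array needs no normalization between arrays. The signal of miR-200b-3p over that of miR-200a-3p, a hairpin of the same cluster, was 3.81, 3.84, 3.70 and 4.42 across the sham arrays, against 6.50, 5.57, 5.98 and 6.25 across the TULP arrays. All TULP arrays lay above all sham arrays, and TULP replicate 1 was the highest. The mean log2 ratio rose by 0.63 from sham to TULP.

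The signal of miR-200a-3p over that of miR-429 was 1.15, 1.06, 1.04 and 0.830 across the sham arrays, against 0.577, 0.535, 0.707 and 0.727 across the TULP arrays. All TULP arrays lay below all sham arrays. The ratio of miR-200b-3p to miR-429, the remaining pair of that cluster, overlapped between groups, with a log2 difference of -0.06. Within the cluster it was thus miR-200a-3p whose signal was lower on the TULP arrays relative to each of its mates. Ratios without overlap were common, at 31.8% of all pairs of miRNAs detected on every array, so this does not set miR-200a-3p apart.

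Across the clusters, the signal of miR-200b-3p over that of miR-200c-3p was 13.8, 12.7, 17.9 and 16.0 across the sham arrays, against 22.7, 34.1, 35.7 and 44.5 across the TULP arrays. That of miR-429 over miR-200c-3p was 3.15, 3.13, 4.63 and 4.36 across the sham arrays, against 6.04, 11.4, 8.46 and 9.78 across the TULP arrays. Neither ratio overlapped between the groups, although these miRNAs belong to the same seed group. On TULP replicates 2, 3 and 4 the signal of miR-200c-3p was that of its 15-base probe alone, and on the other arrays that of both probes. The 14-base probe, left out there as undetected, read 2.17, 1.02 and 2.08, so these ratios are higher than with both probes. A ratio of 2 miRNAs shows unequal change and not which of them changed.

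Of the 10 pairs of guide arms, 4 had ratios that did not overlap between the groups. Among all 7381 pairs of the 122 miRNAs detected on every array, 31.8% did so, which is near the share in the family. The ratio of miR-200c-3p to miR-141-3p, of the same hairpin cluster, was 0.706, 0.512, 0.383 and 0.719 across the sham arrays, against 0.635, 0.189, 0.3003 and 0.235 across the TULP arrays. TULP replicate 1 lay within the sham range and the other TULP arrays lay below it. On those other arrays miR-200c-3p was read by its 15-base probe alone, and on TULP replicates 3 and 4 miR-141-3p by its 17-base probe alone.

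**Figure D3:**
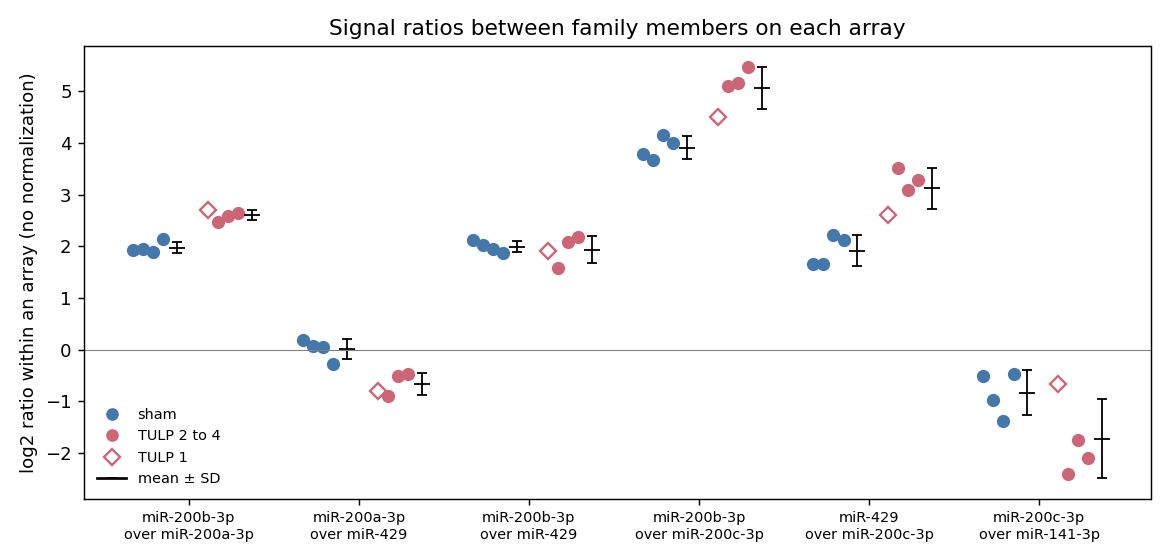
Log2 ratio of the signals of family members within an array, without normalization, for 6 of the 10 pairs of guide arms on the sham and TULP arrays, with mean and SD as bars and TULP replicate 1 as an open diamond. The ratios of miR-200b-3p to miR-200a-3p, miR-200a-3p to miR-429, miR-200b-3p to miR-200c-3p and miR-429 to miR-200c-3p did not overlap between the groups, whereas that of miR-200b-3p to miR-429 did. On TULP replicates 2 to 4 miR-200c-3p was read by its 15-base probe alone.

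The probes of a member moved alike. Before normalization, the sham mean over the TULP mean was 2.27 and 2.36 for the probes of miR-200a-3p, 1.45 and 1.48 for those of miR-200b-3p and 1.35 and 1.39 for those of miR-429. For miR-141-3p it was 1.98 with the 16-base probe and 1.76 with the 17-base probe, and for miR-200c-3p 2.72 with the 14-base probe and 2.34 with the 15-base probe printed above.

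The weaker probe of miR-200c-3p, catcattacccggC, was detected on the sham arrays and TULP replicate 1 and fell below detection on TULP replicates 2, 3 and 4. There the signal rested on the 15-base probe alone. Its signal was 16.5, 19.5, 17.9 and 17.7 across the sham arrays, against 15.0, 5.998, 5.38 and 4.20 across the TULP arrays. With that probe as the sole measure, the difference was -1.18 in place of -1.46 (limma, adjusted p = 0.0658). For miR-141-3p, the 16-base probe was below detection on TULP replicates 3 and 4, and the brightest probe alone gave -0.37 in place of -0.57 (limma, adjusted p = 0.336). Of the probes of miR-200b-5p, only the longest, tccaatgctgcccaG, was detected on any array.

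The total that the image software stored for each miRNA did not hold the signal of miR-200c-3p on 3 arrays. Stored totals were read at the first probe of each miRNA by name. Whether its other probes carry the same total was not checked. On TULP replicates 2, 3 and 4, the stored total was 210.7, 197.7 and 190.8, while the detected probe of miR-200c-3p gave 5.998, 5.38 and 4.20. The excess equalled the signal of miR-200b-3p on the same array, 204.7, 192.3 and 186.6, within 0.01. On the sham arrays and TULP replicate 1, where both probes were detected, the stored total was the sum of the probes.

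The same was found for miR-200b-5p on the 5 arrays that detected it, whose stored total included the signal of miR-200b-3p, and for miR-141-3p on TULP replicates 3 and 4, whose stored total included that of miR-140-5p. Over all rat miRNAs, the stored total exceeded the own probes in 352 of 432 cases with a probe below detection and in 0 of 759 cases with all probes detected. With stored totals, miR-200c-3p would be higher in the TULP group by 2.54 (limma, adjusted p = 0.0541). The values in the other paragraphs were therefore rebuilt from the detected probes. The normalized log2 table deposited by the authors did not show this excess for miR-200c-3p. Its values there were 2.84, 2.56 and 1.51 on TULP replicates 2, 3 and 4. The difference in that table was -1.57 (limma, adjusted p = 0.106).

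**Figure D4:**
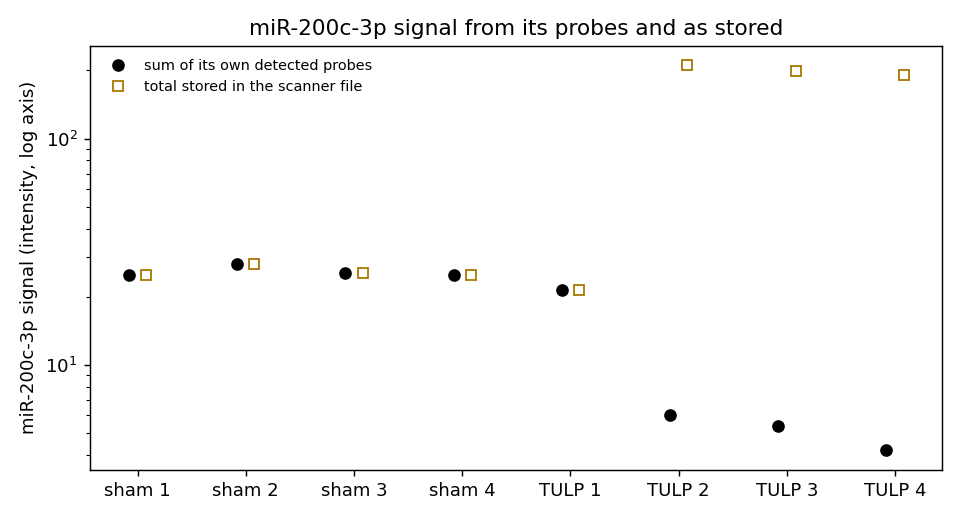
Signal of miR-200c-3p (intensity, log axis) on each array as the sum of its own detected probes (filled circles) and as the total stored in the scanner output (open squares). Both were equal on the sham arrays and TULP replicate 1, and on TULP replicates 2 to 4 the stored totals were 190.8 to 210.7 against 4.20 to 5.998 from the probe.

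The slide rows gave different sizes. Within the first row (1 sham and 3 TULP arrays), the TULP minus sham difference of miR-200c-3p was -0.84, and within the other row (3 sham and 1 TULP arrays) it was -2.59. For miR-200a-3p these were -0.17 and -1.16. For miR-141-3p they were 0.27 and -1.30, for miR-200b-3p 0.40 and -0.45, and for miR-429 0.32 and -0.53, so that the direction was not kept within rows for these members. The first row held TULP replicate 1. With the row as a block, miR-200c-3p differed by -1.72 (limma, adjusted p = 0.112) and 0 members passed.

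The size of each difference also depended on how arrays were scaled. Summed over the detected miRNAs, the signal was 21075 to 37357 on the sham arrays and 16787 to 19464 on the TULP arrays. Without normalization, the median of all 151 tested miRNAs shifted by -0.55, and with arrays scaled to the labelling spike-ins it shifted by -0.78. Relative to that shift, miR-200c-3p differed by -1.26 under both scalings, miR-200a-3p by -0.73, miR-141-3p by -0.37, miR-200b-3p by -0.10 and miR-429 by -0.05. Taken as scaled to the spike-ins, 4 of 6 members passed in limma, all lower: miR-200c-3p (-2.04), miR-200a-3p (-1.51), miR-141-3p (-1.16) and miR-200b-3p (-0.89). These differences include the shift of -0.78 in the median of all tested miRNAs. The share of all tested miRNAs that passed under this scaling was not counted, so the 4 of 6 has no background. The guide arms together made up 1.76% to 2.72% of the summed signal on the sham arrays, 3.83% on TULP replicate 1 and 1.60% to 1.99% on the other TULP arrays.

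Other miRNAs associated with epithelia were read beside the family. Of 27 listed on the array, 21 were undetected on every array and 3 were tested, and 0 of these passed in limma. miR-375-3p, known from secretory and luminal epithelium, had levels of 3.52, 4.05, 3.82 and 3.67 on the sham arrays, 4.05 on TULP replicate 1 and 0.96, the floor, on the other TULP arrays, with a difference of -2.03 (limma, adjusted p = 0.0675). TULP replicate 1 thus lay within the sham range here too.

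miR-205, a miRNA of basal and stratified epithelium, had levels of 4.24, 4.48, 4.41 and 4.74 across the sham arrays, against 4.82, 4.24, 2.97 and 3.12 across the TULP arrays, a difference of -0.68 (limma, adjusted p = 0.285). miR-183-5p, of a cluster best known from sensory epithelia, differed by -0.74 (limma, adjusted p = 0.446). The mean level over these 3 was 3.39 to 3.81 on the sham arrays, 4.16 on TULP replicate 1 and 1.63 to 2.56 on the other TULP arrays. All 3 were above the floor on every sham array, while 21 of the 27 listed were undetected on every array.

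**Figure D5:**
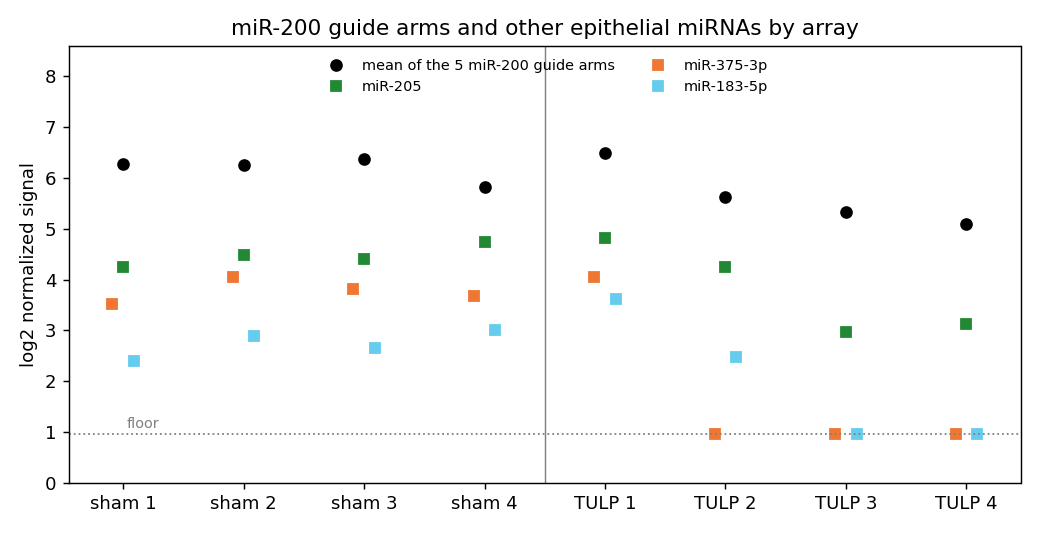
Log2 normalized signal (y axis) of miR-205, miR-375-3p and miR-183-5p and the mean of the 5 miR-200 guide arms on each array. TULP replicate 1 lay at or above the sham arrays for the mean of the guide arms (6.49), and miR-375-3p was at the floor (dotted line, 0.96) on TULP replicates 2 to 4.

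Markers of other cell types moved with the groups too, and their part in the miR-200 values was not tested. Over all tested miRNAs, 13.9% passed as higher and 16.6% as lower. Of 6 tested leukocyte miRNAs, 3 were up-regulated (limma), led by miR-146b-5p (2.90). miR-150-5p, a miRNA of mature lymphocytes, had a difference of opposite sign that did not pass (-0.59, limma adjusted p = 0.0737), with all TULP arrays below all sham arrays. Of 12 leukocyte miRNAs listed, 6 were undetected on every array. Of 5 tested striated muscle miRNAs, 4 were down-regulated, with list means of 8.20 to 8.75 on the sham arrays and 7.47 to 8.30 on the TULP arrays. Of 3 tested stromal miRNAs, 2 were up-regulated, with list means of 5.86 to 6.22 and 6.46 to 6.71. The smooth muscle list had 0 of 2 passing, the endothelial list 0 of 1 and the erythrocyte list 1 of 2, which was lower.

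Outside the family, the profile over the 8 arrays most like the mean of the 5 guide arms was that of miR-375-3p (Pearson r = 0.904), of 145 tested miRNAs compared. Next were miR-29c-3p (0.903), a miRNA known to target collagens, and miR-145-5p (0.890), a miRNA of smooth muscle. miR-10a-5p (0.857), encoded in a Hox cluster, and miR-183-5p (0.848) followed. All miRNAs of an array share its depth and normalization, and the correlations are descriptions over 8 points. Spearman's rho was 0.822 for miR-375-3p, 0.771 for miR-29c-3p and 0.707 for miR-183-5p. Without TULP replicates 3 and 4, which lay farthest from the median of the guide mean, r was 0.790 for miR-375-3p, 0.881 for miR-29c-3p and 0.417 for miR-183-5p.

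Among the members themselves, the profile of miR-200a-3p was closest to the mean of the other guide arms (r = 0.935 over 8 arrays), then that of miR-200c-3p (0.884). The range over the TULP arrays was 2.71 for miR-200c-3p and 0.86 without TULP replicate 1, against 0.47 over the sham arrays. For miR-200b-3p it was 1.28 and 0.08 without TULP replicate 1, against 0.49 over the sham arrays.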

How the data were processed

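Total RNA of 8 rats was hybridized to Agilent rat miRNA arrays (1806 probes for 758 rat miRNAs, 12128 spots). Per the file headers, images were read with Feature Extraction 10.7.1.1, and spot and probe intensity values are background subtracted, with positions on the rat build rn4. A further table, deposited by the authors, gives quantile-normalized log2 values of 780 features and was used as an alternative. The members and lists were chosen with earlier results of these data known.

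The signal of a miRNA was the sum over its probes whose signal exceeded 3 times its error, and 0.1 where none did, which matched the detection calls of the files with 0 mismatches. Stored totals were an alternative. Signals were quantile normalized over rat miRNAs, raised to a floor of 1.94 (for each array the lowest normalized signal among detected miRNAs, then the median of these) and converted to log2. Differences of the 151 miRNAs detected on at least 4 arrays were tested by lmFit and eBayes of limma 3.58.1 (R 4.3.3), with Benjamini-Hochberg adjustment over all of them. The limma fit was run on simulated log2 values, and the steps before it, from probe detection to normalization, were not tested in this way. With 4 arrays per group, their number limits the precision. The miRNAs named were all members, listed epithelial and cell type miRNAs, and the 5 with profiles most like the guide mean. Mature sequences and gene positions came from RefSeq tables, and mature entries were matched by name. Leaving out arrays, the slide row, the replicate number, filters, floors, scalings and the methods' t-test were tried as alternatives.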

Additional observations from a re-analysis of the deposited data

Results flagged for a closer look

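In the TULP group, replicate 1 lay far above the other 3 arrays, by more than Dixon's 95% critical value, for 3 members of the family and for miR-375-3p. Its log2 level was 9.29 for miR-200b-3p, 6.42 for miR-200a-3p, 2.40 for miR-200b-5p and 4.05 for miR-375-3p. For miR-200b-5p and miR-375-3p, the other 3 TULP arrays were all at the floor, so any higher value would have passed the critical value. Such gaps were looked for in 42 groups of arrays and found in 4. A chance count of 2.1 would hold only for independent groups without ties. These groups shared members and held ties at the floor, so the 4 cannot be weighed against it. All 4 came from the same array, so they are not independent.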

How the results depend on the processing

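The count of members passing in limma was 0 over all arrays and 0 to 4 over 34 alternatives, and with a fold above 2 it was 0 to 3. For the other scalings and the stored totals, the share of all tested miRNAs passing was not counted beside these. miR-200a-3p and miR-141-3p were lower under all 34 alternatives, and miR-200c-3p under 33. Some alternatives, such as filters and floors, cannot change these differences, so the 34 are not independent checks. The count was 4 (3 with the fold) with spike-in scaling, 3 (2 with the fold) without normalization, and 1 (1 with the fold) with the 75th percentile over miRNAs detected on all arrays, where miR-200c-3p passed (-1.30, adjusted p = 0.0470), and 1 (1 with the fold) with stored totals, where miR-200a-3p passed (-1.05). The methods' t-test on the deposited table called 1 at its unadjusted p (miR-200a-3p) and 0 with the fold or after Benjamini-Hochberg. Leaving out single arrays gave counts of 0 to 2, with the fold 0 to 1, the 2 only without TULP replicate 1. Whether that was so with all steps rerun or with the normalization kept made no difference to the counts. The cause of these changes was not tested, except that stored totals include another miRNA.

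With stored totals, the cluster contrast was -1.65, the seed contrast 1.35, and the difference of miR-200c-3p 2.54, of miR-200b-3p -0.22, of miR-429 -0.27 and of miR-200b-5p -4.86. With normexp (offset 50), the cluster contrast was 0.045, with miR-200b-3p at -0.067, miR-429 at -0.023 and miR-200b-5p at -0.034. Leaving out single arrays gave a cluster contrast of 0.66 to 0.89 with all steps rerun and 0.66 to 0.88 with the normalization kept. The seed contrast ran from 0.0050 to 0.25 and from -0.015 to 0.26.

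The sign of miR-200b-3p and miR-429 was not settled, being negative in 17 of 34 alternatives each. Filters, floors, the replicate block and the methods' t-test on the main values cannot change these differences and repeat the main sign. For miR-200b-3p, each change of signal, scaling or table and the row block gave a negative value. miR-429 was at 0.043 with the brightest probe. miR-200b-3p was at -0.040 with the brightest probe, -0.14 with the 75th percentile, -0.66 without normalization, -0.89 with spike-ins, -0.17 with control features kept and in the deposited table under limma and the methods' t-test, and -0.025 with the row block. miR-429 was at -0.088 with the 75th percentile, -0.60 without normalization, -0.83 with spike-ins, -0.022 with control features kept, -0.025 in the deposited table and -0.11 with the row block. miR-200b-5p was at -0.0084, -0.27 and -0.41 with these 3 scalings, -1.12 in the deposited table and -2.49 with a floor of 0.1. Leaving out single arrays gave -0.31 to 0.12 for miR-200b-3p in both modes, -0.19 to 0.18 for miR-429 and -0.30 to 0.31 for miR-200b-5p (-0.25 without TULP replicate 1 with the normalization kept). With all steps rerun and with the normalization kept, miR-200b-3p was at -0.042 and -0.041 without sham replicate 2, and at -0.078 and -0.094 without sham replicate 4. miR-429 was at -0.0075 without sham replicate 2 (normalization kept), at -0.051 and -0.035 without sham replicate 4, and at -0.028 and -0.025 without TULP replicate 2.

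Whether the replicate numbers pair the arrays cannot be decided from 4 correlations. Deviations from the group means of same-numbered arrays correlated at 0.128, -0.097, 0.269 and -0.102 for numbers 1 to 4. The same-numbered TULP array was the best match for sham replicates 1 and 3, and not for 2 and 4. With the replicate number as a block, 0 members passed, miR-200c-3p differed by -1.46 (limma, adjusted p = 0.0713) and the contrasts stayed at 0.79 and 0.16. Scaling to the 75th percentile over all miRNAs was not run, since that percentile is the undetected value of 0.1 on every array. Dim members limit what can be read: miR-200b-5p has a level above the floor on few arrays, and its fold depends on the floor.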
